A study of Mus musculus with 21 samples.

Results

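Goblet cells are the mucus-secreting cells of the intestinal epithelium, and 10 genes of their mucus and its assembly were followed in colon RNA of germ-free mice. All 10 genes were among the 27354 gene symbols on the arrays, with 16 of the 56605 day 0 probes and 12 of the 55681 day 7 probes, and each gene was read from its brightest probe, the one with the highest mean signal over all arrays of a day. The mice were male C57BL/6J, reared germ-free, and were labelled either GF Card9-/-, a label for mice without the innate immune adaptor Card9, or GF WT. Dextran sodium sulfate (DSS), a detergent-like polymer that injures the colon epithelium, was given at 2% in drinking water for 7 days. Total colon tissue was taken at day 0, before DSS (7 arrays labelled GF Card9-/- and 6 labelled GF WT), and at day 7 (4 and 4), with 1 single-color Agilent array for each sample. The age of these mice was not given in the sources used here. The arrays of the 2 days are of different designs, so day and design cannot be told apart, and levels were not compared between the days. The question asked of the genes was whether the label went with a difference in mucus gene expression within a day, and which of the genes varied together.

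The inner layer of colonic mucus is a net of Muc2, a gel-forming mucin that is folded, glycosylated and packed in goblet cells. Agr2 is a disulfide isomerase of the endoplasmic reticulum needed for Muc2 processing, and Spdef is an ETS-family transcription factor of goblet cell maturation. Fcgbp, Zg16, Tff3 and Spink4 are secreted with the mucus: Fcgbp binds into the Muc2 net, Zg16 is a lectin that binds bacterial cell walls, Tff3 is a trefoil peptide of epithelial repair, and Spink4 is a Kazal-type protein of goblet cells. Muc1, Muc4 and Muc13 are mucins anchored in the cell membrane, and Muc13 is also made by absorptive colonocytes. In germ-free animals the colonic mucus layer is known to be less developed than in colonized ones. Since total tissue was measured, fewer goblet cells and less RNA for each goblet cell cannot be told apart in any value below.

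Card9 itself went against the labels. At day 0 its brightest probe was well above background on all 7 arrays labelled GF Card9-/- (log2 signal 8.71 to 9.24) and on 0 of 6 labelled GF WT (2.30 to 2.33). At day 7 it was above background on all 4 arrays labelled GF Card9-/- and on 1 labelled GF WT, replicate 1 (7.85, beside 2.39 to 2.41 on the others). Which labels hold is not settled by this probe, so every direction below is that of the labels as deposited. Other arrays also stood apart. On the day 0 array labelled GF WT replicate 6, a list of small intestine genes lay 1.75 above its mean over the day's arrays on the log2 scale, and a list of distal gut genes lay at -2.93. A list of pancreas genes lay 10.65 above its mean on the day 0 array labelled GF Card9-/- replicate 7, and 4.19 and 8.41 above it on the day 7 arrays labelled GF Card9-/- replicates 2.1 and 6. Between 42.2% and 64.9% of spots were well above background on an array, and no spot was saturated.

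For 8 of the 10 genes the brightest probe was the same 60-base sequence on both designs. Muc2 and Muc1 were read from different probes on the 2 designs, and those sequences are shown because they set what each day measured (5′ to 3′, positions on the NCBI37 build, mm9). The day 0 probe for Muc2 lies at chromosome 7, 148940536 to 148940595, and a 30-base stretch of it is printed with the polyadenylation signal hexamer in capitals, which places it at the end of the transcript. The day 7 probe for Muc2 (chromosome 7, 148940000 to 148940059) lies upstream of it. The day 0 probe for Muc1 spans 968 bases of genome (chromosome 3, 89036007 to 89036974), so its 60 bases cross an exon junction, whereas the day 7 probe for Muc1 lies in 1 block (chromosome 3, 89034965 to 89035024).
Muc2 probe, day 0: ttgctttccgatAATAAActcaggcatagc
Muc2 probe, day 7: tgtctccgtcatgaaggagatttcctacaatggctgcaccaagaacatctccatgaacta
Muc1 probe, day 0: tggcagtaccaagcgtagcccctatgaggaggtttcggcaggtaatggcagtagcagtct
Muc1 probe, day 7: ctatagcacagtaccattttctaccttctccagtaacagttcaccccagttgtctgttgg

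Promoters of 7 of the 10 genes were found in RefSeq on GRCm38.p6, as the 250 bases before and 50 after the start of transcription. Agr2 and Spdef varied together across arrays at day 0, and Muc4 and Spdef at day 7, so the promoters of these genes are printed with that of Muc2. Capitals mark GGAT, the core of ETS-family sites to which Spdef belongs, and TTTATNG, a CDX-type motif, on either strand. All 4 windows hold GGAT, which is also in 79.6% of all 32851 promoters, and Agr2 and Muc4 hold TTTATNG, which is in 10.9%. In Muc4 that match, at -37 from the start of transcription, overlaps TATAAA, the TATA box sequence, at -36. It is therefore not read as a CDX site shared with Agr2. Motifs of the TATA, FOXA, KLF and GATA type were searched as well and are not marked. The longer Spdef motif CCGGAT (6.04% of promoters) was in none of the 4.
Agr2 promoter, chr12:35992675-35992974, plus strand: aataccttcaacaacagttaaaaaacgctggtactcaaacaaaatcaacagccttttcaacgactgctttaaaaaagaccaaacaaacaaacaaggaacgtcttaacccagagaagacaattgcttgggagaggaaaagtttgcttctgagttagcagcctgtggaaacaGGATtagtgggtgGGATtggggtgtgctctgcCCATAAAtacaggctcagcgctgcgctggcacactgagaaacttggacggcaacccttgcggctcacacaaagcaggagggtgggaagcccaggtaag
Spdef promoter, chr17:27728902-27729201, minus strand: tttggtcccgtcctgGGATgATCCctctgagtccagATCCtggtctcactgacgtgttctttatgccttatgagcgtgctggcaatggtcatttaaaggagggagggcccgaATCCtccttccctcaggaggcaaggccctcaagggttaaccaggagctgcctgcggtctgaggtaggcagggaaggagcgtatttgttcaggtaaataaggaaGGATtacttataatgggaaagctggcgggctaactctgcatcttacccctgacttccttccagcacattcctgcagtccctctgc
Muc4 promoter, chr16:32735636-32735935, plus strand: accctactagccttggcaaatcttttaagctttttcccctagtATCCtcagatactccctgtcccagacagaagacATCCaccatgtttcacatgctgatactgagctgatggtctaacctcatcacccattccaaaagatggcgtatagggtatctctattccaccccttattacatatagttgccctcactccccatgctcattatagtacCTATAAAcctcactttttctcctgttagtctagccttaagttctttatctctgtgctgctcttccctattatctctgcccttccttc
Muc2 promoter, chr7:141690090-141690389, plus strand: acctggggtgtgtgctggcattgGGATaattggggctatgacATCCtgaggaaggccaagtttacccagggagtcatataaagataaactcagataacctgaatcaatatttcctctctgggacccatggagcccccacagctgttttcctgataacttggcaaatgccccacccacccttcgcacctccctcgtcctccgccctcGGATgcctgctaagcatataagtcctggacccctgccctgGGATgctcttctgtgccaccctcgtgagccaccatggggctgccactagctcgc

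All 10 genes were well above background wherever they were measured, on every array of both days save 1 outlier-marked Muc2 spot at day 0, and none passed the test between the labels at either day. At day 0, 0 of 10 genes passed an adjusted p of 0.05 by limma, beside 0.0253% of all 47410 tested probes (0.0148% with the label GF Card9-/- higher, 0.0105% with it lower), and 0 of 10 had an unadjusted p under 0.05, beside 5.84% of probes. The labels overlapped for all 10 genes, where they did not overlap for 0.458% of probes (0.316% with the label GF Card9-/- higher). At day 7 none passed either (0% of 44643 probes did), 0 of 10 had an unadjusted p under 0.05 (3.38% of probes), and the labels again overlapped for every gene (2.13% of probes did not overlap, 1.08% with the label GF Card9-/- higher). The median difference over the 10 genes, labelled GF Card9-/- minus labelled GF WT, was 0.10 on the log2 scale at day 0, beside 0.015 over all tested probes (8 of 10 genes higher), and 0.29 at day 7, beside 0.00128 (7 of 10 higher, 2 lower and Zg16 at 0). Without the day 7 array labelled GF WT replicate 1, on which Card9 was above background, the differences of the 10 genes ran from -0.13 for Spink4 to 0.50 for Muc4, and none passed. The medians over the 10 genes rested on single arrays: without the day 7 array labelled GF WT replicate 5 the median was 0.077 with 6 of 10 genes higher, and without the day 0 array labelled GF WT replicate 6 it was 0.0061 with 5 of 10 higher. Within the 4 day 0 slides the difference took both signs for every gene but Zg16, and within the 2 day 7 slides that held both labels it took both signs for Muc2, Muc13, Fcgbp, Tff3, Agr2 and Spink4. Whether the samples with one label come from separate cages or litters is not given, so these p-values measure the spread between arrays of a label.

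**Figure D1:**
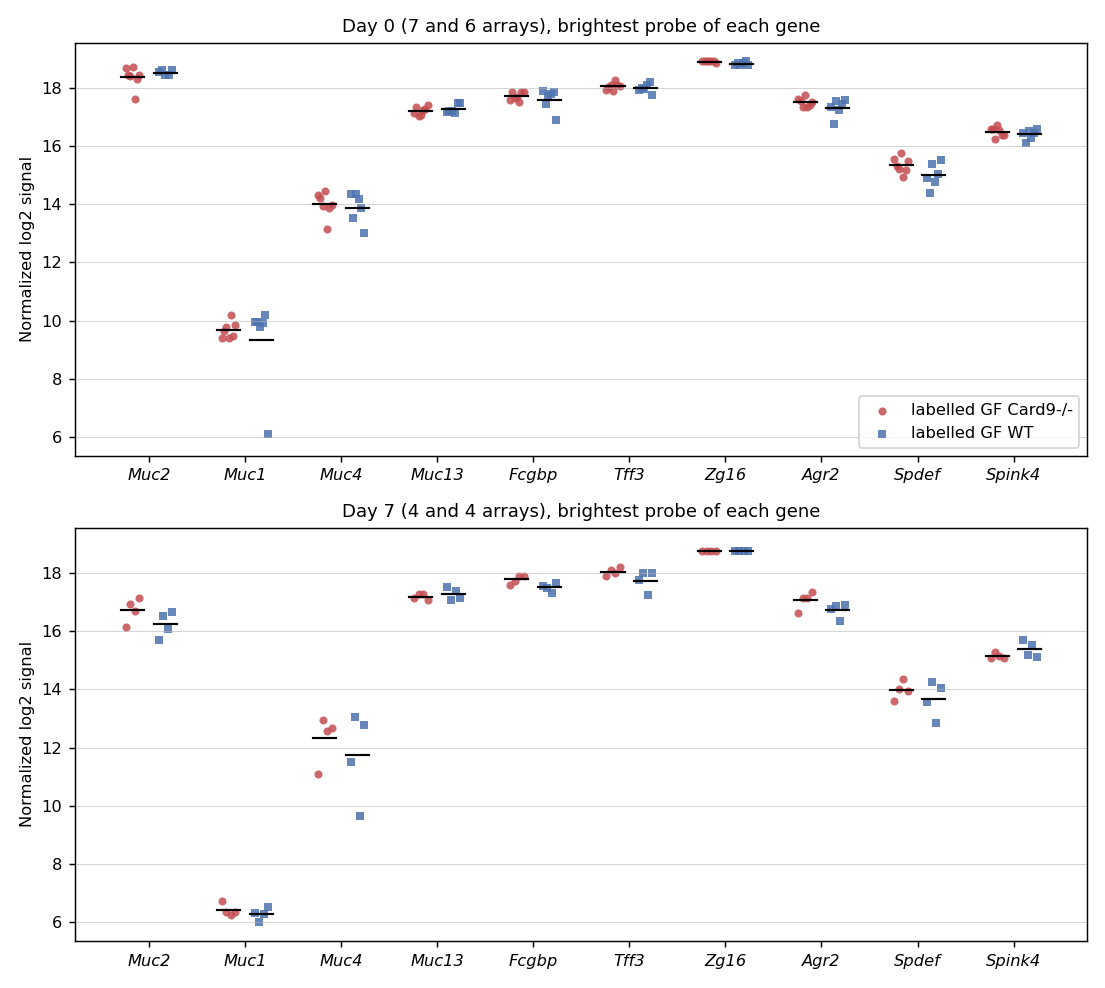
Normalized log2 signal (y axis) of the brightest probe of each of the 10 mucus genes (x axis) on each array at day 0 and day 7. Circles are arrays labelled GF Card9-/-, squares are arrays labelled GF WT, and bars are label means. The labels overlap for every gene, and 1 array labelled GF WT at day 0 stands at 6.08 for Muc1.

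Muc2, the gel-forming mucin, was bright on every array. At day 0 Muc2 ranged from 17.61 to 18.70 (median 18.42) in the arrays labelled GF Card9-/- and from 18.42 to 18.60 (median 18.55) in those labelled GF WT. The lowest value, 17.61, was that of the array labelled GF Card9-/- replicate 5, and the spot of the array labelled GF WT replicate 2 was marked as an outlier by the scanner software, so that the label had 5 values. The difference was -0.16 ± 0.16 (SE, 95% interval -0.52 to 0.19, adjusted p = 0.912 by limma), and -0.038 without that lowest array. A dimmer Muc2 probe followed the same arrays (r = 0.94 over 12 arrays) and differed by -0.15.

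At day 7 the Muc2 signal was 16.15, 16.94, 16.67 and 17.15 in the arrays labelled GF Card9-/- (replicates 2, 2.1, 4 and 6) and 15.69, 16.52, 16.09 and 16.64 in those labelled GF WT (replicates 1, 4, 5 and 6). The 3 highest arrays were labelled GF Card9-/- and the lowest 2 GF WT, and the labels overlapped only through the array labelled GF Card9-/- replicate 2. The difference was 0.49 ± 0.29 (SE, 95% interval -0.18 to 1.17, adjusted p = 0.913 by limma), and the exact permutation test of the 4 against 4 arrays gave p = 0.143, where the smallest p it allows is 0.0286. Without the array labelled GF WT replicate 1 the difference was 0.31.

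Among the proteins that fold Muc2 and set goblet cell maturation, Agr2 and Spdef had higher means under the label GF Card9-/- than under GF WT on both days, within the spread of the arrays. At day 0 Agr2 ranged from 17.33 to 17.76 (median 17.50) in the arrays labelled GF Card9-/- and from 16.77 to 17.59 (median 17.39) in those labelled GF WT. Spdef ranged from 14.91 to 15.74 (median 15.33) in the arrays labelled GF Card9-/- and from 14.38 to 15.51 (median 14.97) in those labelled GF WT at the same day. For both genes the lowest array was labelled GF WT replicate 2 and the highest was labelled GF Card9-/- replicate 4. The differences were 0.18 ± 0.13 (SE, 95% interval -0.095 to 0.46, adjusted p = 0.912 by limma) for Agr2 and 0.35 ± 0.19 (SE, 95% interval -0.056 to 0.75, adjusted p = 0.912 by limma) for Spdef, and came to 0.072 and 0.23 without the array labelled GF WT replicate 2. Within the 2 scan sessions of day 0 the Spdef difference was 0.14 and 0.56, and within the 4 slides it ran from -0.47 to 0.59.

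At day 7 Agr2 was 16.62, 17.14, 17.14 and 17.34 under the first label and 16.76, 16.85, 16.35 and 16.90 under the second (same array order as for Muc2). The array labelled GF WT replicate 5 was the lowest and the one labelled GF Card9-/- replicate 6 the highest, and the labels overlapped only through the array labelled GF Card9-/- replicate 2. Spdef was 13.61, 14.02, 14.34 and 13.94 under the first label and 13.57, 14.25, 12.85 and 14.05 under the second, again lowest on the array labelled GF WT replicate 5. The differences were 0.35 ± 0.20 (SE, 95% interval -0.12 to 0.81, adjusted p = 0.913 by limma) and 0.30 ± 0.32 (SE, 95% interval -0.45 to 1.05, adjusted p = 0.913 by limma). Without the array labelled GF WT replicate 5 they were 0.22 and 0.025. The intervals leave room for Spdef to lie anywhere between 0.732 and 2.07 times the GF WT level. Within the 2 day 7 slides that held both labels the Spdef difference was -0.44 and -0.23, opposite in sign to the pooled value.

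Of the secreted partners of Muc2, Fcgbp came closest to a difference at day 7. It was 17.60, 17.73, 17.90 and 17.90 under the first label and 17.54, 17.49, 17.33 and 17.65 under the second. The 3 highest arrays were labelled GF Card9-/-, and the fourth, replicate 2, lay below the GF WT replicate 6 array. The difference was 0.28 ± 0.12 (SE, 95% interval -0.0057 to 0.57, adjusted p = 0.913 by limma). The exact permutation p was 0.0571, and 0.0857 when each array was scaled by its 75th percentile. A second, dimmer Fcgbp probe differed by 0.33 in the same direction (r = 0.56 with the brightest over 8 arrays). Its 95% interval was -0.50 to 1.16, its exact permutation p was 0.429, and its lowest array was labelled GF Card9-/- (replicate 2.1, 10.54). Without the array labelled GF WT replicate 1, on which Card9 was above background, the Fcgbp difference was 0.29. At day 0 Fcgbp ranged from 17.52 to 17.87 (median 17.68) in the arrays labelled GF Card9-/- and from 16.89 to 17.88 (median 17.74) in those labelled GF WT, with the lowest value on the array labelled GF WT replicate 6. The day 0 difference of 0.13 ± 0.15 (SE, 95% interval -0.19 to 0.46, adjusted p = 0.914 by limma) came to -0.0089 without that array.

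Zg16 was the brightest of all probes on each of the 8 day 7 arrays, and quantile normalization, which gives the top rank of every array 1 common value, set it to 18.76 on all of them. Its day 7 difference of 0 is therefore fixed by the processing and is no measurement. Before normalization the processed signal ran from 260221 on the array labelled GF WT replicate 5 to 572267 on the one labelled GF Card9-/- replicate 6. After scaling by each array's 75th percentile instead, the difference was 0.32 on the log2 scale with overlapping labels (exact permutation p = 0.229). At day 0 Zg16 ranked between 2 and 4 among all probes, so that its normalized values could take few levels, from 18.80 to 18.90. The difference on that scale was 0.064 ± 0.036 (SE, 95% interval -0.014 to 0.14, adjusted p = 0.912 by limma), with an exact permutation p of 0.0169. With 75th percentile scaling it was 0.083 with an exact permutation p of 0.463.

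Tff3 and Spink4, the other secreted products, differed with opposite sign between the labels at day 7, and neither passed the test. Tff3 was 17.90, 18.10, 18.01 and 18.19 under the first label and 17.74, 17.99, 17.23 and 17.98 under the second (array order as above). The array labelled GF WT replicate 5 lay apart at the low end. Spink4 was 15.09, 15.28, 15.14 and 15.09 under the first label and 15.69, 15.18, 15.54 and 15.12 under the second, and was highest on the arrays labelled GF WT replicates 1 and 5. The differences were 0.31 ± 0.19 (SE, 95% interval -0.13 to 0.75, adjusted p = 0.913 by limma) for Tff3 and -0.23 ± 0.15 (SE, 95% interval -0.60 to 0.13, adjusted p = 0.913 by limma) for Spink4. Tff3 differed by 0.14 without the array labelled GF WT replicate 5, and Spink4 by -0.13 without replicate 1. At day 0 Tff3 ranged from 17.89 to 18.27 (median 18.05) in the arrays labelled GF Card9-/- and from 17.74 to 18.18 (median 17.97) in those labelled GF WT. Spink4 ran from 16.11 to 16.71 over the 13 arrays of day 0. Their day 0 differences were 0.070 and 0.085, with intervals of -0.10 to 0.24 and -0.12 to 0.29. They came to 0.021 for Tff3 without the array labelled GF WT replicate 6, to 0.033 without the one labelled GF Card9-/- replicate 5, and to 0.028 for Spink4 without the one labelled GF WT replicate 2.

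Among the membrane mucins, Muc1 had 1 array far below all others. At day 0 Muc1 ranged from 9.39 to 10.19 (median 9.64) in the arrays labelled GF Card9-/- and from 6.08 to 10.20 (median 9.94) in those labelled GF WT. The array labelled GF WT replicate 6 read 6.08 (processed signal 62.8), while the other 12 arrays lay between 9.39 and 10.20 (697 to 1200). That is the array on which small intestine genes were high and distal gut genes low. The difference of 0.35 ± 0.58 (SE, 95% interval -0.90 to 1.61, adjusted p = 0.943 by limma) came to -0.29 (adjusted p = 0.656 by limma) without it. At day 7, from another and dim probe (processed signal 68.1 to 113), Muc1 lay between 6.00 and 6.71 on all 8 arrays.

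Muc4 spread the most of the 10 genes at day 7. It was 11.10, 12.96, 12.58 and 12.66 under the first label and 11.52, 13.06, 9.65 and 12.76 under the second (array order as above). The array labelled GF WT replicate 5 was lowest and the next lowest was labelled GF Card9-/- replicate 2, so both labels held low and high arrays. The difference was 0.58 ± 0.79 (SE, 95% interval -1.28 to 2.44, adjusted p = 0.927 by limma), and it was -0.12 without the lowest array. Within the 2 slides that held both labels the difference was -1.66 and -0.10. A second Muc4 probe followed the same arrays (r = 0.95). At day 0 Muc4 ranged from 13.15 to 14.45 (median 13.98) in the arrays labelled GF Card9-/- and from 13.02 to 14.35 (median 14.01) in those labelled GF WT, and the difference of 0.11 came to -0.056 without the array labelled GF WT replicate 6. Of the 3 other Muc4 probes at day 0, 2 followed the brightest (r = 0.94 and 0.89), and the third was at background on all 13.

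Muc13 had the smallest difference between the labels of the 4 mucins at both days. It lay between 17.02 and 17.48 on the 13 arrays of day 0 and between 17.05 and 17.51 on the 8 of day 7. The differences were -0.067 ± 0.086 (SE, 95% interval -0.25 to 0.12, adjusted p = 0.922 by limma) at day 0 and -0.080 ± 0.13 (SE, 95% interval -0.39 to 0.23, adjusted p = 0.947 by limma) at day 7. The day 7 interval bounds the Muc13 level of the arrays labelled GF Card9-/- between 0.761 and 1.18 times that of the arrays labelled GF WT. The day 0 difference lay between -0.10 (without the array labelled GF Card9-/- replicate 7) and -0.024 (without GF WT replicate 5) when single arrays were left out. Without the array labelled GF WT replicate 1 the day 7 difference was 0.0011.

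**Figure D2:**
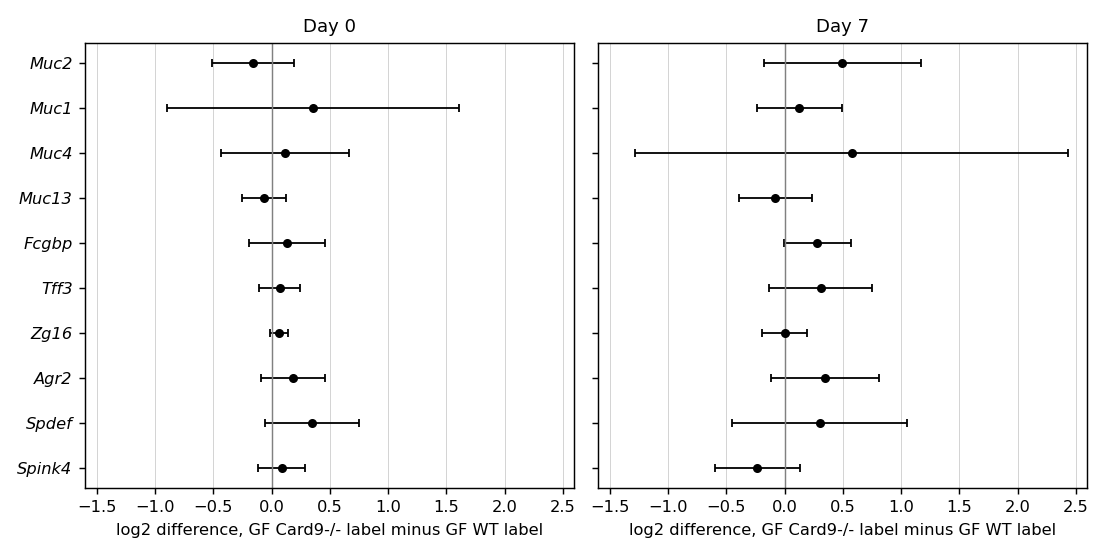
Difference in normalized log2 signal (x axis), arrays labelled GF Card9-/- minus arrays labelled GF WT, for each gene (y axis) at day 0 and day 7. Points are limma estimates and bars are 95% intervals. Every interval includes 0, and the Muc4 interval at day 7 is the widest, from -1.28 to 2.44. The Zg16 estimate at day 7 is fixed by the normalization.

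The label difference could be compared between the days for the 8 genes read from the same probe, by the interaction of label and day in limma over 23633 probes. None passed the adjusted threshold, as for all probes (0%), and none had an unadjusted p under 0.05 (7.14% of probes). The change from day 0 to day 7 was largest against its error for Spink4, at -0.32 ± 0.17 (SE, 95% interval -0.67 to 0.038, adjusted p = 0.722 by limma). For Tff3 it was 0.24 ± 0.18 (adjusted p = 0.817 by limma), and 0.071 without the day 7 array labelled GF WT replicate 5. Zg16 carries the fixed day 7 values and is not read here.

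Agr2, Spdef and Spink4 varied together across the 13 arrays of day 0. Of the 45 pairs of genes, 5 passed an adjusted p of 0.05 (Benjamini-Hochberg over the 45), and the 3 pairs of these genes were among them. How often pairs of other genes pass was not computed at either day. The counts of pairs are therefore not read as particular to the mucus genes. Agr2 and Spdef gave r = 0.94, rho = 0.92, permutation p = 1.00e-05, adjusted p = 0.000450. Agr2 and Spink4 gave r = 0.86, rho = 0.89, permutation p = 6.00e-05, adjusted p = 0.00135. Spdef and Spink4 gave r = 0.74, rho = 0.73, permutation p = 0.00401, adjusted p = 0.0361. The permutation p-values are those of r. By rho, adjusted over the 45 pairs, the permutation p was 0.00225, 0.00270 and 0.0590, so Spdef with Spink4 did not pass by rank. The smallest p the 100000 resamples can give is 1e-05. Leaving out the 2 arrays farthest from the median of the first gene (labelled GF Card9-/- replicate 4 and GF WT replicate 2) left r = 0.91, 0.70 and 0.42, so the Spdef and Spink4 relation rests on those arrays. Within the 7 arrays labelled GF Card9-/- r was 0.92, 0.74 and 0.44, and within the 6 labelled GF WT it was 0.95, 0.98 and 0.96. After subtracting slide means r was 0.93, 0.84 and 0.69, and with 75th percentile scaling 0.92, 0.89 and 0.71.

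The other 2 pairs past the threshold for r at day 0 depended on the scaling. Muc2 and Tff3 ran against each other on quantile-normalized values (r = -0.78, rho = -0.89, permutation p = 0.00134, adjusted p = 0.0151), with r = -0.79 without the 2 arrays farthest from the Muc2 median, but r was -0.27 with 75th percentile scaling. Muc1 and Tff3 ran together (r = 0.71, rho = 0.62, permutation p = 0.000990, adjusted p = 0.0149), with r = 0.55 without the 2 arrays farthest from the Muc1 median and 0.31 after the other scaling. By rank, Muc2 with Tff3 passed (adjusted permutation p = 0.00405 for rho), Muc1 with Tff3 did not (0.147), and Muc1 with Spdef did (rho = -0.78, adjusted permutation p = 0.0309). Muc1 and Fcgbp reached r = 0.81 over the 13 arrays and -0.065 without the array labelled GF WT replicate 6, so that relation rests on 1 array. With 75th percentile scaling 6 pairs passed, 3 of them the pairs of Agr2, Spdef and Spink4. The other 3 joined Muc13 and Zg16 (r = 0.90), Tff3 and Zg16 (0.83) and Muc13 and Tff3 (0.76). Quantile-normalized values gave r = -0.17, 0.53 and -0.0035 for these, none past the threshold.

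**Figure D3:**
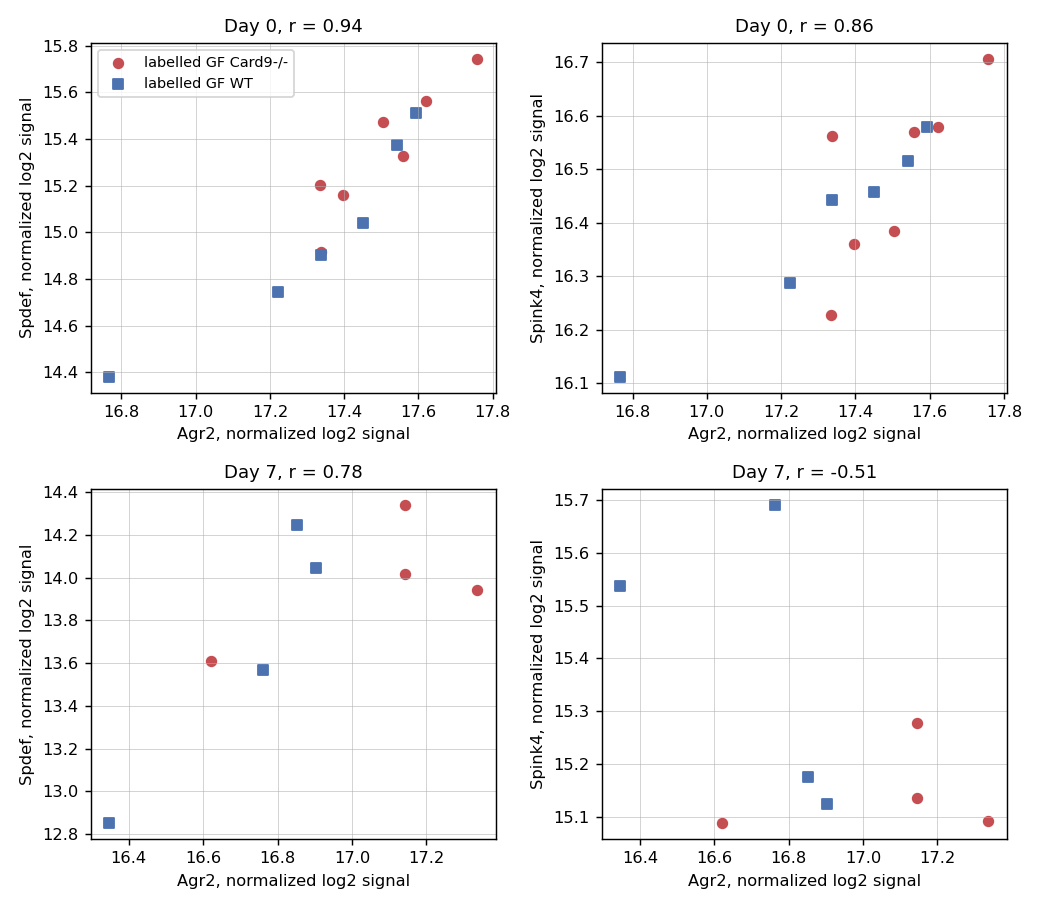
Normalized log2 signal of Spdef (left) and Spink4 (right) against Agr2 on each array, at day 0 (top, 13 arrays) and day 7 (bottom, 8 arrays). Circles are arrays labelled GF Card9-/- and squares are arrays labelled GF WT. The r of Spdef with Agr2 is 0.94 at day 0 and 0.78 at day 7 (adjusted p = 0.0716, exact permutation), and r of Spink4 with Agr2 is 0.86 at day 0 and -0.51 at day 7.

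At day 7 the pairs that varied together lay mostly among Muc4, Fcgbp, Tff3, Agr2 and Spdef, of whose 10 pairs 6 passed the threshold. Zg16 has no r on quantile-normalized values, which left 36 pairs, and 7 passed an adjusted p of 0.05 for r, again without a share for pairs of other genes. Spdef passed with Muc4 alone, and Muc4 with Fcgbp did not pass (adjusted p = 0.168, exact permutation). Muc4 and Spdef gave r = 0.95, rho = 0.71, permutation p = 0.00342, adjusted p = 0.0308, with all pairings of the 8 arrays enumerated (exact). Fcgbp and Agr2 gave r = 0.92, rho = 0.89, permutation p = 0.00208, adjusted p = 0.0280 by the same exact test. The other 4 pairs were Muc4 with Tff3 (r = 0.91), Muc4 with Agr2 (0.84), Fcgbp with Tff3 (0.81) and Tff3 with Agr2 (0.88). Without the 2 arrays farthest from the median of the first gene, the r of these 6 pairs lay between 0.40 (Muc4 with Agr2, which rests on those arrays) and 0.92. Muc13 and Spink4 formed a pair of their own (r = 0.90, rho = 0.74, permutation p = 0.00233, adjusted p = 0.0280, exact), with r = 0.57 without the arrays labelled GF WT replicates 1 and 5. With 75th percentile scaling all 7 pairs passed again among 16 of 45, and Zg16 then varied with Tff3 (r = 0.97), Fcgbp (0.94) and Agr2 (0.93). Muc2 varied with Muc4 (r = 0.86) and Tff3 (0.81) on that scale, both past the threshold. By rank the calls differed: with the exact permutation p of Spearman's rho, Tff3 with Agr2 was the 1 pair of the 7 that passed (adjusted p = 0.0205), Fcgbp with Agr2 had an adjusted p of 0.0540, Muc4 with Spdef 0.259 and Muc13 with Spink4 0.236. Muc2 with Tff3 (rho = 0.95, adjusted p = 0.0205, exact permutation) and Muc2 with Agr2 (rho = 0.92, adjusted p = 0.0310) passed by rank, for 3 pairs in all.

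**Figure D4:**
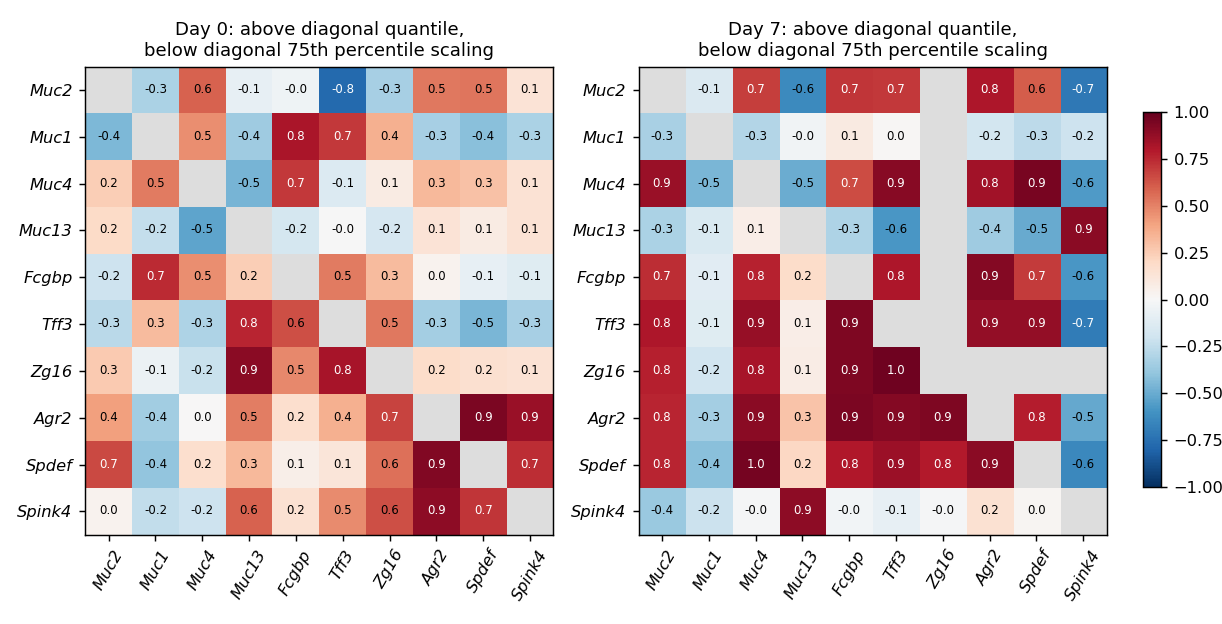
Pearson r across arrays for every pair of the 10 genes at day 0 (13 arrays) and day 7 (8 arrays). Cells above the diagonal use quantile-normalized values and cells below it 75th percentile scaling, with grey where r is not defined. Agr2, Spdef and Spink4 form a block at day 0 under both scalings (r from 0.71 to 0.94).

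The array labelled GF WT replicate 5 stood at the low end for these genes. On 75th percentile scaling it read 9.31 for Zg16, where the other 7 lay between 9.86 and 10.47. It was also the lowest array for Muc2, Muc4, Fcgbp, Tff3, Agr2 and Spdef on that scale. Without it r on quantile-normalized values was 0.84 for Muc4 and Spdef, 0.85 for Fcgbp and Agr2, and 0.66 for Muc4 and Agr2. The other pairs past the threshold gave 0.70 (Muc4 and Tff3), 0.67 (Fcgbp and Tff3), 0.83 (Tff3 and Agr2) and 0.89 (Muc13 and Spink4). With 75th percentile scaling these pairs, in the same order, gave 0.88, 0.78, 0.69, 0.54, 0.75, 0.65 and 0.92. These r without the array were not tested. Lists of other cell types differed on the same array: absorptive colonocyte genes lay at -1.64 around their mean over the day's arrays, small intestine genes at -2.03, adipocyte genes at -2.12, smooth muscle genes at 1.14 and distal gut genes at 1.74. Genes of the epithelium as a whole lay at -0.40. The part of these other genes' shifts in the mucus gene values was not tested.

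**Figure D5:**
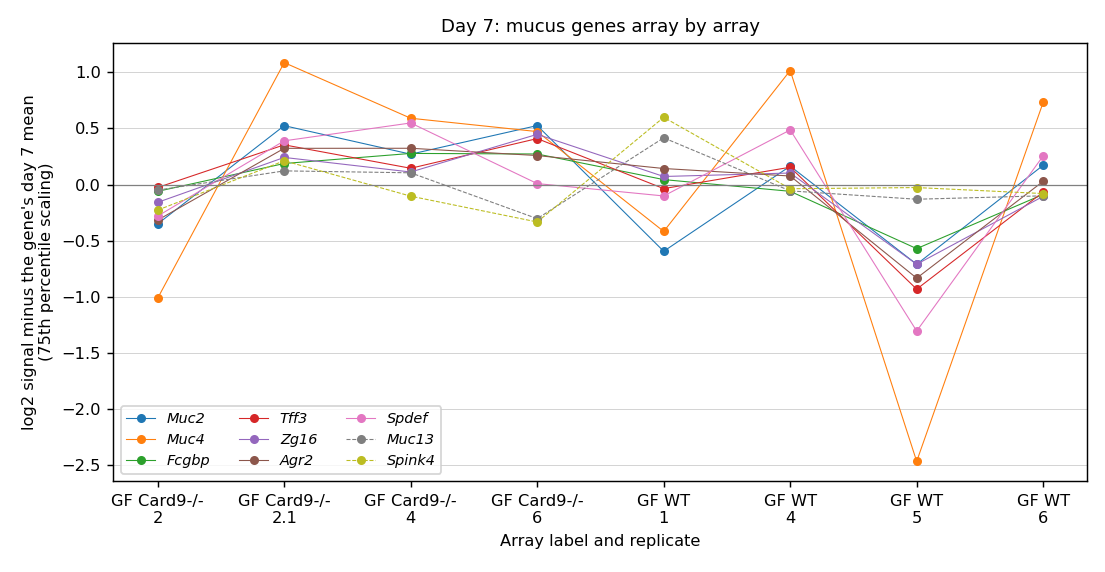
Log2 signal scaled by the 75th percentile of each array, minus the day 7 mean of each gene (y axis), for the 8 day 7 arrays (x axis). Lines join the values of 1 gene, solid for Muc2, Muc4, Fcgbp, Tff3, Zg16, Agr2 and Spdef and dashed for Muc13 and Spink4. The array labelled GF WT replicate 5 is lowest for all 7 solid lines, while Spink4 is highest on the array labelled GF WT replicate 1 (7.12 before centring).

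Spink4 was not among the genes that varied with Agr2 past the threshold at day 7. Its r with Agr2 was -0.51 (adjusted p = 0.298, exact permutation over 8 arrays) and 0.15 with 75th percentile scaling, against 0.86 and 0.89 at day 0. The 2 designs carry the same probes for both genes. The difference of r between the days was not tested. At day 0 the lowest array for Spink4, Agr2 and Spdef was the one labelled GF WT replicate 2, on which the absorptive colonocyte list (-0.37) and the epithelium list (-0.35) also lay below their means.

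Other genes of mucus production were read from 3 lists. Of 21 genes of goblet cell secretion and differentiation, all tested at both days, 0 passed the adjusted threshold, and 19 had the higher mean under the label GF Card9-/- at day 0 and 14 at day 7, where 57.0% and 50.4% of all tested probes did. The list's median difference was 0.12 at day 0 and 0.15 at day 7, beside 0.015 and 0.00128 over all probes. An array score is the mean of the list's genes, each centred on its mean over the day's arrays. At day 0 the scores ran from -0.12 to 0.60 under GF Card9-/- and from -0.40 to 0.19 under GF WT. The 0.60 was on replicate 7, where pancreas genes also lay high, and the next highest of that label was 0.19. At day 7 the scores ran from -0.067 to 0.44 and from -0.46 to -0.037. The highest, 0.44 and 0.37, were on replicates 6 and 2.1, where pancreas genes lay high too. At an unadjusted p under 0.05 by limma, 4 of the 21 stood at day 0 (5.84% of all probes did) and 0 of the 21 at day 7 (3.38%), and the 4 are named after their values were seen. Atoh1, the transcription factor that commits cells to the secretory lineage, differed by 0.28 (adjusted p = 0.540 by limma), Foxa3, a forkhead factor, by 0.29, and the secretory stress factors Xbp1 and Creb3l1 by 0.12 and 0.13. At day 7 the same genes differed by 0.081, 0.39, 0.25 and, from another Creb3l1 probe, -0.36.

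Lists of other tissues had median differences away from 0 too, with 0 genes past the adjusted threshold, and no list was tested as a whole. All 8 pancreas genes had the higher mean under the label GF Card9-/- at day 7 (median difference 4.95), where the list's array scores ran from -2.36 to 8.41 under that label and from -2.79 to -1.99 under GF WT. Of the 8, 1 had an unadjusted p under 0.05 by limma, Cpb1, a pancreatic carboxypeptidase (5.80). All 8 smooth muscle genes had the lower mean under the label GF Card9-/- at each day (median -0.45 at both), with scores from -1.45 to 0.66 and from -1.15 to 1.14 at day 7. No marker of either list was below background on every array. Of 10 epithelium genes, 9 at day 0 and 7 at day 7 had the higher mean under GF Card9-/- (median differences 0.055 and 0.16). At day 7 so did all 7 absorptive colonocyte genes (median difference 0.37), all 6 immune cell genes (0.31), 5 of 6 adipocyte genes (1.5) and 5 of 7 small intestine genes (0.87), and 1 of 4 distal gut genes (-0.33). Of the small intestine genes 3 had an unadjusted p under 0.05 by limma (3.38% of all probes did), Sis (3.23) and Mttp (0.83) with the higher mean under GF Card9-/- and Fabp6 (-0.60), which had the smallest p, with the lower. In size the medians of these last 5 lists are as large as or larger than the 0.29 of the 10 mucus genes and the 0.15 of the goblet cell list. At day 0 the median differences of the same 5 lists were 0.069, -0.086, -0.056, -0.21 and -0.068. The part of these lists in the goblet cell list and in the 10 genes was not tested.

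Of 16 mucin glycosylation enzymes, 12 had the higher mean under the label GF Card9-/- at each day, with medians of 0.084 and 0.25, and 0 passed the threshold. An unadjusted p under 0.05 by limma was given by 1 of the 16 at each day, beside 5.84% and 3.38% of all probes, so these shares lay near the background. They were Galnt7, which starts O-glycans, at day 0 (0.13, adjusted p = 0.780) and Fut2, a fucosyltransferase, at day 7 (-0.37, adjusted p = 0.913). The list lay at -0.74 on the day 7 array labelled GF WT replicate 5, which was also low for most of the 10 mucus genes. Of the other mucins, 7 were tested at day 0 and 5 at day 7, and 0 passed the adjusted threshold. Of the 7 at day 0, 4 had the higher mean under the label GF Card9-/- (median difference 0.14), and of the 5 at day 7, 3 did (0.050). The unadjusted p was under 0.05 by limma for 2 of 7 at day 0 (5.84% of all probes), both lower under the label GF Card9-/-, and for 1 of 5 at day 7 (3.38%). Muc3, a membrane mucin of enterocytes, differed by -0.34 at day 0 (unadjusted p = 0.00290, adjusted p = 0.391 by limma), and by 0.050 at day 7 from another probe. The list's separate entry Muc3a, above background on all 13 arrays of day 0, differed by -0.083 there (unadjusted p = 0.685 by limma). Muc5b, a gel-forming mucin of the airways that was above background on 2 of 13 arrays, differed by -0.68 at day 0, and Muc20, a membrane mucin, by 0.59 at day 7. On more than 50% of the arrays of a day, 4 and 2 of them were above background.

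The genes whose arrays followed the 10 mucus genes most closely were sought at day 0 among 22901 other symbols, as Pearson r over 13 arrays with the mean of the centred mucus gene values after label means were subtracted. They were Dynll1 (r = 0.94), a dynein light chain, Rasd2 (0.92), a small Ras-like GTPase, Pdia5 (0.90), a protein disulfide isomerase of the endoplasmic reticulum, Fzd9 (0.90), a Wnt receptor, and Mira (0.89). These are the highest of many values and are given as a description. The ranking rested largely on 1 gene on 1 array: the mean lay at -0.38 on the array labelled GF WT replicate 6, with the next lowest at -0.15, and at -0.065 there with Muc1 left out of the mean. Without Muc1 the r of the 5 genes was 0.70, 0.50, 0.89, 0.49 and 0.65, and without that array 0.85, 0.81, 0.96, 0.73 and 0.80. Pdia5 ranked 5 and 2 among all symbols in these settings, and the other 4 ranked 120 or lower. Over the 8 arrays of day 7, which did not choose them, r was 0.80 for Dynll1, 0.78 for Rasd2, 0.79 for Pdia5 and 0.83 for Fzd9. That day's mean lay at -0.39 on the array labelled GF WT replicate 5 and at -0.28 on the one labelled GF Card9-/- replicate 2. The r without these arrays was not computed. Nor was the share of other symbols with as high an r at day 7, so these values are a description too. Mira had no tested probe with that symbol at day 7. With 75th percentile scaling Fzd9 had r = 0.50 at day 0, and the other 4 lay between 0.84 and 0.93. At day 7 that scaling gave 0.67 for Dynll1, 0.86 for Rasd2, 0.86 for Pdia5 and 0.76 for Fzd9.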

How the data were processed

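RNA of total colon was measured on 21 single-color arrays. Per the labels, Agilent Feature Extraction 10.7.3.1 was used by the authors to extract spots. The deposited spot intensity values are linear, and a p-value for signal over local background was deposited with each spot. The authors also deposited tables of normalized log2 values, used here as an alternative. Those tables hold no sample columns besides the 21 arrays.

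The processed signal was log2-transformed, quantile normalized within each day, freed of control spots and of spots marked as outliers, and averaged over the spots of a probe. Detection in at least 60% of the arrays of 1 label (p under 0.05) and at least 2 values for each label were required, so that 47410 of 56605 day 0 probes and 44643 of 55681 day 7 probes were tested. Probes were named through RefSeq (GRCm38.p6), with 29032 and 24260 tested probes matched, and otherwise by the files. The members and lists were chosen with earlier results of these data known. Labels were compared in limma 3.58.1 (R 4.3.3, statmod 1.5.0) with Benjamini-Hochberg adjustment over all probes, and beside it by exact two-sided permutation of arrays. By rule, genes named beyond the 10 are Card9, list genes past the adjusted threshold (there were none) and the 5 genes most like the mean of the 10. Genes of the 3 mucus lists with an unadjusted p under 0.05, and the day 7 genes of the pancreas and small intestine lists with one, are named besides, chosen after their values were seen. Pairs were tested by two-sided permutation (100000 resamples, or all pairings of 8 arrays). The arrays of day 0 lie on 4 slides that each hold both labels, scanned in 2 sessions, and those of day 7 on 6 slides, of which 2 hold both labels. Alternatives were 75th percentile scaling, normexp background correction (offset 50), the authors' table, other filters, the mean over probes, slide, scan session and replicate number as blocks, and leaving out each array. The code was tested on simulated data. The number of arrays limits the precision. Python 3.11.15, numpy 2.4.6, pandas 2.3.3 and matplotlib 3.10.9 were used for correlations and plots.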

Additional observations from a re-analysis of the deposited data

Results flagged for a closer look

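In 38 groups of arrays of 1 label, day and gene, the highest or lowest array was compared with the rest. In 3 of the groups, all at day 0, the gap was large against the range of the group. Chance gives about 1 in 20, so 3 of 38 is near that rate. The groups share arrays and are not independent, and the rate does not hold for tied values such as those of Zg16. Muc1 read 6.08 on the array labelled GF WT replicate 6, with the nearest array at 9.79. Muc2 read 17.61 on the array labelled GF Card9-/- replicate 5, with the nearest at 18.29. On that array the smooth muscle list lay at -2.10 and the adipocyte list at -5.47 around their means, and Tff3 was at its highest (18.27). Zg16 read 18.84 on the array labelled GF Card9-/- replicate 7, while the other 6 arrays of that label shared 1 value, 18.90, which follows from quantile normalization near the top of the signal range. With 75th percentile scaling that array read 9.25 for Zg16.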

How the results depend on the processing

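No gene of the 10 passed the adjusted threshold at either day, or for the difference between the days, under any alternative run. Adjusted p-values ranged from 0.540 to 1 at day 0, from 0.777 to 1 at day 7 and from 0.421 to 0.99988 between the days. Signs changed for several genes, including the differences largest in size at each day, Muc1 at day 0 and Muc4 at day 7. Leaving out single arrays, the day 0 differences of Muc1, Muc4 and Fcgbp ran from -0.29, -0.056 and -0.0089 (each without the array labelled GF WT replicate 6) to 0.53, 0.25 and 0.19. At day 7 those of Muc4 and Muc13 ran from -0.12 (without GF WT replicate 5) to 1.01 and from -0.15 to 0.0011 (without GF WT replicate 1). For the difference between the days the ranges were -0.24 (without day 7 GF WT replicate 5) to 0.90 for Muc4, -0.083 to 0.068 for Muc13 and -0.32 to 0.14 for Spdef, and Zg16 gave 0.24 with 75th percentile scaling. The mean over both Muc2 probes gave 0.38 at day 0, because on the array labelled GF WT replicate 2 the dimmer probe alone was left. Replicate numbers shared by the labels were tried as a replicate block. Deviations of same-numbered arrays correlated at -0.022 to 0.37 at day 0 and 0.029 and 0.11 at day 7, and not every array matched its own number best, so the numbers are not taken as pairs. With the replicate block, 7 probes passed at day 0 in place of 12 and 0 at day 7, with 0 of the 10 genes at either, and Muc4, Muc13 and Spdef were -0.29, 0.073 and -0.0048 at day 7. Between the days Muc4 and Muc13 were -0.41 and 0.18 with the block. Over all probes, the count past the threshold at day 0 was 27 with normexp, 22 in the authors' table and 4 with the mean over probes, beside 12, and 8 to 16 without single arrays. The median r over pairs was 0.13 at day 0, and 0.26 with 75th percentile scaling, 0.016 with label means subtracted, 0.065 in the authors' table, 0.27 with slide means subtracted and 0.031 to 0.15 without single arrays. At day 7 it was -0.011 over the 36 pairs without Zg16, and 0.20, -0.10 and 0.074 under the first 3 of these, and -0.058 to 0.16 without single arrays. Counted by rho in place of r, 4 pairs passed at day 0 in place of 5 (3 shared) and 3 at day 7 in place of 7 (1 shared), and with 75th percentile scaling of r 6 and 16 passed. The 75th percentile scaling of the permutation tests and of the pairs, the ranks of the pairs, the pairs without 1 array, and the gene ranking without 1 array or without Muc1 were chosen after seeing the data. The rank of the brightest probes limits what quantile normalization can show for Zg16.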
